A study of Mus musculus with 10 samples.

Results

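The mouse Runx1 gene encodes RUNX1, the transcription factor that was itself immunoprecipitated in this study, so its own locus shows where RUNX1 sat on the gene that makes it. The locus was taken as every RUNX1 peak whose summit lay on chromosome 16 from 92.35 to 92.7 Mb of GRCm39, which holds the gene (about 92.398 to 92.623 Mb, minus strand) with flanks on both sides. This gave 48 of 147041 peaks. Peaks that overlapped by at least 1 bp were merged, which gave 20 sites of the 64286 merged regions of the whole genome. Chromatin came from mouse large biliary epithelial cells (MLE), cultured cholangiocytes of the larger bile ducts. Cells near confluence were kept overnight with TGFβ at 10 ng/mL or with vehicle, and in both groups chromatin was cut with enzyme before a polyclonal antibody pulled down RUNX1. Each treatment had 3 ChIP libraries, 2 from batch 1 (replicates 1 and 2) and 1 from batch 2 (replicate 3). The labels hold no replicate numbers, so these were assigned here in the order of the sample records. The labels also do not say whether the batch 1 replicates were separate cultures, so p-values measure only the spread between libraries. The data are peak calls, with no expression measured, so the labelled cell type could not be checked against marker genes, and RUNX1 abundance in the cells is not known.

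RUNX1 is the DNA-binding subunit of core binding factor and pairs with CBFβ. It is best known as a regulator of blood cell formation, and it is also expressed in epithelia. Runx1 is transcribed from a distal promoter at the 5′ end of the gene and from a proximal promoter far inside it, and the stretch between them is known to hold an enhancer used in blood stem cells. RUNX proteins bind a core motif with the letters TGTGGT, can act together with the SMAD proteins that carry the TGFβ signal, and are known to bind regulatory sequence of RUNX genes.

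Both Runx1 promoters in the RefSeq table (build GRCm38.p6) are shown because the locus had a strong RUNX1 site at the 5′ end of the gene and another at the spacing of the proximal start. The 250 bases before each start are printed 5′ to 3′ on the gene's strand, and capitals would mark a RUNX core (TGTGGT or TGCGGT on either strand), of which these stretches hold none. The third line is a stretch of 26 bases within the first 50 transcribed bases of the distal promoter, with its RUNX cores in capitals.
Distal promoter, chr16:92826075-92826324, minus strand: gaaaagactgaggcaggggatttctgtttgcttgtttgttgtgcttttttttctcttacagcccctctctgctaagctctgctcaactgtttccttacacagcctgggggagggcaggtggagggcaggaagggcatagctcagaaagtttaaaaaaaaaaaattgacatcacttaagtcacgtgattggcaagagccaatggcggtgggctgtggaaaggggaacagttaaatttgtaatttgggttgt
Proximal promoter, chr16:92697330-92697579, minus strand: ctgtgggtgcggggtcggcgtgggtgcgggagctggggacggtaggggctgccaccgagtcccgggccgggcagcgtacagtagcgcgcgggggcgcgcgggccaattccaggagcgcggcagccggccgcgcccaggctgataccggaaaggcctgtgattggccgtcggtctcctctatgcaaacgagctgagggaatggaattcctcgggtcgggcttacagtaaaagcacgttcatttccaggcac
RUNX cores after the distal start, chr16:92826025-92826050, minus strand: aacaACCACAgaACCACAagttgggt

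The distal promoter held 2 matches to TGTGGT within the 300 bases from 250 before to 50 after the start, both on the opposite strand, beginning 29 and 37 bases after the start. Matches to TGTGGT occurred in 16.8% of 32851 promoters of that length in the table, and 2 or more RUNX cores in 2.86%. The proximal promoter held none, nor did either promoter hold TGCGGT (6.45% of promoters), the AP-1 motif TGANTCA (7.81%) or the SMAD core GTCTG (49.6%). Each motif was searched separately on both strands. The proximal promoter held the TEAD motif GGAATG once, beginning 55 bases before the start (14.7% of promoters). The 2 promoters also differ in composition, with 45.6% G or C and 2 CpG in the 250 bases of the distal promoter, and 67.6% and 27 CpG in those of the proximal one. A match describes the letters only.

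The same search covered promoters of RUNX1 partners and of the TGFβ pathway. Runx2, which directs bone formation, held 4 RUNX cores in its promoter, and 1 of the 2 promoters of Runx3 held 2. Cbfb, the gene of the shared partner subunit, held none. Of 8 co-regulator genes with an entry (Tle1, Tle3, Tle4, Ep300, Crebbp, Sin3a, Ncor1 and Prmt1), a core was found in 1, Ncor1. This gene encodes a co-repressor. Counted by promoter this was 1 of 11, where either core occurred in 22.4% of all promoters in the table. Among 5 TGFβ pathway genes with an entry (Tgfb1, Tgfb2, Tgfbr1, Tgfbr2 and Smad3) a core was found in 0, and in 0 of their 6 promoters. Hdac1, Hdac3, Smad2, Smad4, Smad7 and Skil had no entry. The peaks of these genes were not counted, because the gene positions in hand are of another build than the peaks.

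RUNX1 peaks were called in the Runx1 locus in 5 of the 6 lists. All 20 sites were called in at least 1 TGFβ list, as were 85.4% of all merged regions. TGFβ replicates 1 to 3 held 14, 20 and 5 peaks there, and vehicle replicates 1 to 3 held 3, 6 and 0. Each TGFβ list held more peaks than the vehicle list of the same number, although TGFβ replicate 3 (5 peaks) lay below vehicle replicate 2 (6 peaks). The means were 13 ± 7.55 (SD, n = 3) with TGFβ and 3 ± 3 (SD, n = 3) with vehicle, a difference of 10 peaks and a ratio of 4.33. The two-sided exact permutation test gave p = 0.2, where the smallest possible value is 0.1. Within batch 1 the means were 17 and 4.5 (exact permutation p = 0.333, the smallest possible), and batch 2 holds 1 library per treatment.

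The lists differed in length, so the counts were also read against it. The whole lists held 33601, 42050 and 18790 peaks with TGFβ and 14733, 21602 and 16265 with vehicle, a ratio of means of 1.80. Per 1000 peaks of its list, the locus took 0.417, 0.476 and 0.266 peaks in TGFβ replicates 1, 2 and 3. The vehicle values were 0.204, 0.278 and 0, so here too the groups overlapped (exact permutation p = 0.2). With each list limited to its 14733 best peaks by −log10 p, the locus kept 6, 7 and 5 peaks with TGFβ and 3, 4 and 0 with vehicle, so that the difference fell to 3.67 peaks and the ratio to 2.57 (exact permutation p = 0.1, the smallest possible). Without TGFβ replicate 2 the difference was 6.5 peaks, and without vehicle replicate 2 or 3 the ratio was 8.67 or 2.89.

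The length under peaks followed the same order. TGFβ replicates 1 to 3 had 16593, 21678 and 3106 bp of the locus under peaks, and vehicle replicates 1 to 3 had 2292, 4760 and 0 bp. The means were 13792 ± 9598 bp (SD, n = 3) and 2351 ± 2381 bp (SD, n = 3), and the first was 5.87 times the second (exact permutation p = 0.2, two-sided). Locus peaks averaged 1185 and 1084 bp in the batch 1 TGFβ lists, against 764 and 793 bp in the batch 1 vehicle lists and 621 bp in TGFβ replicate 3. Peaks of the whole lists differed in width too, with means of 812, 1001 and 439 bp in TGFβ replicates 1 to 3 and 669, 788 and 400 bp in vehicle replicates 1 to 3. In the replicate 2 lists the locus widths were thus close to those of their lists. Without TGFβ replicate 2 the difference in covered length was 7499 bp in place of 11442 bp, at fold of at least 5 the ratio was 14.7, and without vehicle replicate 2 or 3 it was 12.0 or 3.91.

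**Figure D1:**
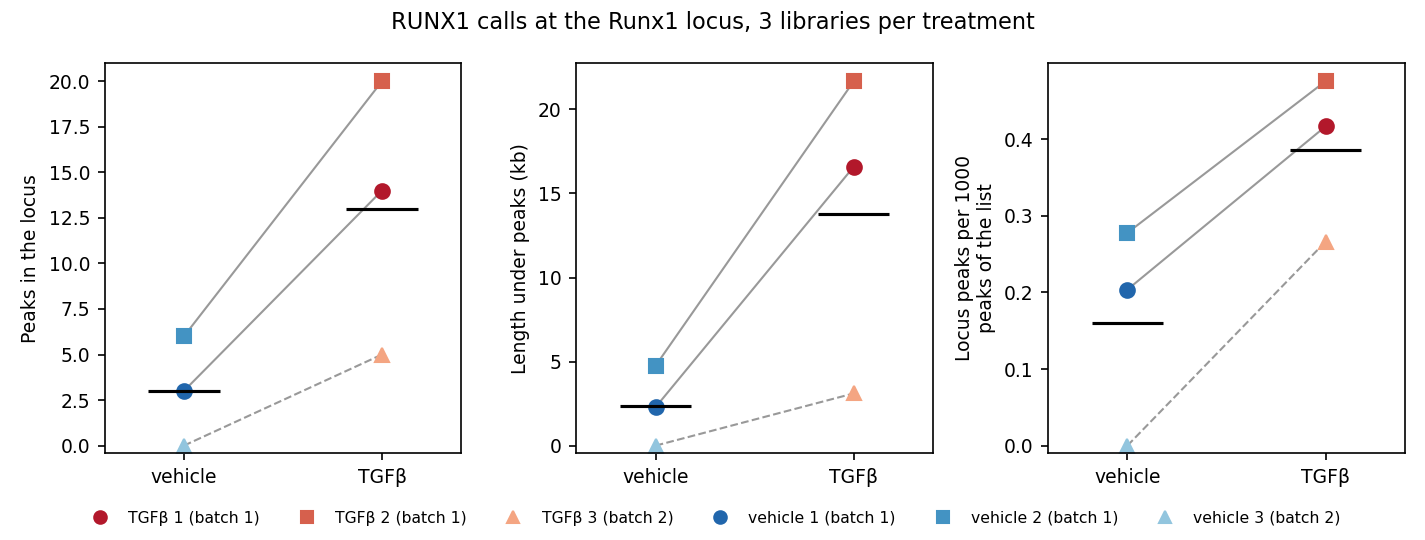
Peaks in the Runx1 locus (left), length under those peaks in kb (middle) and locus peaks per 1000 peaks of the list (right) for the 3 vehicle and 3 TGFβ libraries. Points are libraries, lines join libraries of the same number (solid for batch 1, dashed for batch 2) and bars are group means; all 3 lines rise, from 3 to 14, 6 to 20 and 0 to 5 peaks.

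The 20 sites were spread over the gene and its flanks. By the bounds above, 16 lay in the gene body or at its 5′ end, 3 in the 3′ flank and 1 in the 5′ flank, and exons and introns were not assigned. Positions are given below as the distance of a site's strongest summit from the 5′ end of the gene, along the gene, and since that end is known to about 1 kb these distances share that uncertainty. The first peak beyond the upstream bound of the window lay 0.951 kb outside it, at 92700952 (TGFβ replicate 1, fold 4.30), and the highest summit inside was 74.6 kb from that bound. On the other side, the lowest summit inside lay 15.4 kb from the bound and the nearest one outside 87.0 kb. Between sites of the locus, the longest stretch with no peak in any list ran for 70.6 kb, from 92419495 to 92490129, and the next, of 34.0 kb, from 92586242 to 92620238, lies just inside the 5′ end. In the GRCm38 gene order the nearest protein-coding neighbour on the 3′ side is Clic6, which encodes a chloride intracellular channel protein.

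Of the 20 sites, 16 were called in TGFβ lists only (background 51.6% of all merged regions) and 0 in vehicle lists only (14.6%). The other 4 were called with both treatments. In lists of equal length 7 sites were left, of which 4 were called in TGFβ lists only. That count was also lower at a fold of at least 5 (6 sites), at a −log10 q of at least 5 (9 of 12 sites) and without TGFβ replicate 2 (10 sites). Fewer sites were left in total at equal list length and at that −log10 q. Shares over all regions were not computed under these settings, so the 51.6% is no background for these counts. With windows of 200 bp on the summits in place of whole peaks, 2 windows were called in vehicle lists only. Both came from vehicle replicate 2, with summits at 92418594 and 92495202, inside wider peaks of both batch 1 TGFβ lists. No site was called in all 6 lists (6.36% of all regions), because vehicle replicate 3 had no peak here, and without that library 2 sites were called in every remaining list. A single site was called in all 3 TGFβ and no vehicle list (0.619%), and 7 were called in both batch 1 TGFβ lists and neither batch 1 vehicle list (16.0%). The last of these counts was 3 in lists of equal length and 16 without TGFβ replicate 1, again with no share over all regions computed. A single list accounted for 9 sites (32113 of all 64286 regions), of which 8 came from TGFβ replicate 2, the longest list, and 1 from TGFβ replicate 1. Those 9 had folds from 2.19 to 2.98 and widths from 302 to 706 bp.

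**Figure D2:**
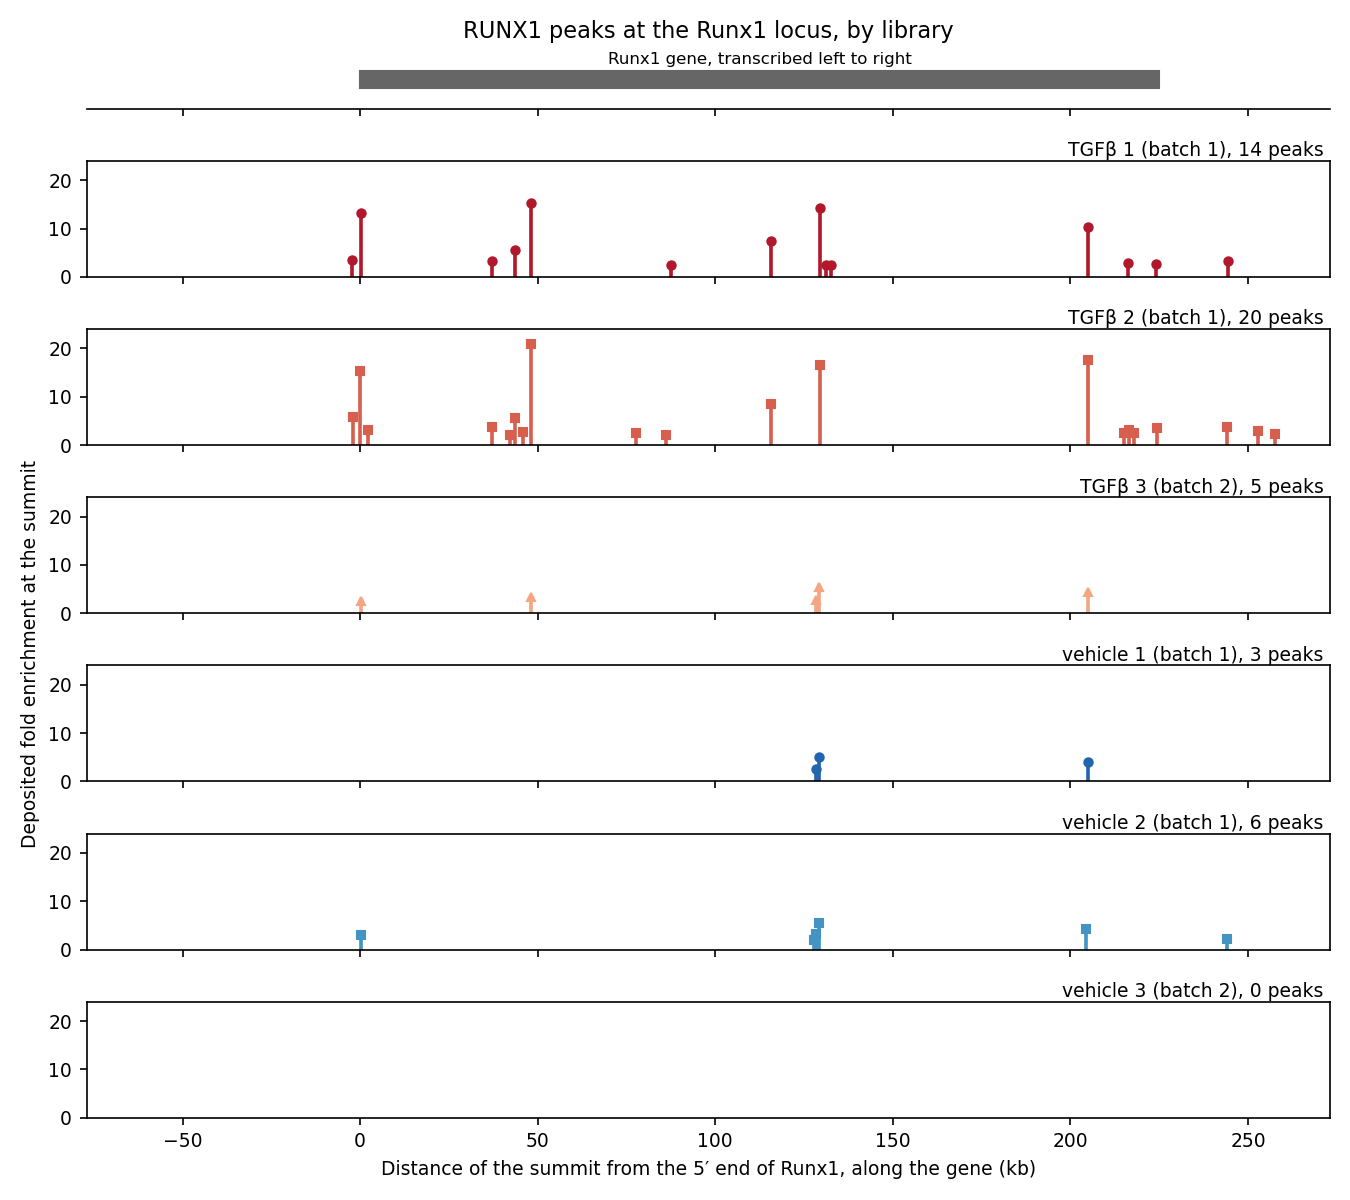
Each panel is a library; every vertical line is a peak at its summit, with its height the deposited fold enrichment, and the horizontal axis is the distance from the 5′ end of Runx1 in kb, with the gene drawn as a grey bar. The 4 sites near 0, 48, 129 and 205 kb are high in TGFβ 1 and 2 and are the ones called in TGFβ 3, and the vehicle 3 panel is empty.

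The same 4 sites led both batch 1 TGFβ lists and made up all calls of TGFβ replicate 3 in the locus. They lay at 0.087, 48.0, 129 and 205 kb from the 5′ end. Fold enrichment, the authors' ratio of the signal at the summit over the local background, exceeded 10 at each of them in TGFβ replicates 1 and 2 and at no other site. Their values in the 6 lists are given next, in order along the gene. Fold describes a peak within its own list, and no test was made between lists.

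The site at the 5′ end of the gene, where the distal promoter lies, spanned 92620239 to 92623722 (3484 bp). TGFβ replicates 1 to 3 gave folds of 13.2, 15.3 and 2.61, vehicle replicate 2 gave 3.07, and vehicle replicates 1 and 3 had no call. Both batch 1 TGFβ values thus stood far above the other two, which were close to each other. From fold and p-value together, the summits of these 4 lists held 162, 174, 31 and 37 overlapping fragments, over backgrounds of 11.3, 10.4, 11.2 and 11.4. Strongest peaks were 3365 and 2574 bp wide in TGFβ replicates 1 and 2, against 315 bp in TGFβ replicate 3 and 499 bp in vehicle replicate 2. The 4 strongest summits fell within 116 bp, between 92622797 and 92622913, so the summits lay close together although the widths differed. In TGFβ replicate 2 the site ranked at the 97.5 percentile of −log10 q of its list, in vehicle replicate 2 at the 43.6 percentile and in TGFβ replicate 3 lower still, at the 38.2 percentile.

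A further site lay upstream of the 5′ end, at -1.97 kb, from 92624617 to 92625643. It was called in the batch 1 TGFβ lists only, with folds of 3.49 and 5.79 in replicates 1 and 2, and its summits in those lists were 400 bp apart.

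The site at 48.0 kb was the only one of the 20 that all 3 TGFβ lists called and all 3 vehicle lists lacked. It spanned 92574352 to 92575999 (1648 bp), between the distal start and the proximal-spacing site described below. TGFβ replicates 1 to 3 gave folds of 15.3, 20.9 and 3.38, from 188, 237 and 38 overlapping fragments over backgrounds of 11.3, 10.4 and 10.5. It was the highest site of the locus in both batch 1 TGFβ lists and the third of 4 in TGFβ replicate 3. The strongest summits of TGFβ replicates 1 and 2 fell on the same base, 92575010, while that of TGFβ replicate 3 was 205 bp away. Vehicle lists called peaks at the lowest background down to folds of 2.05, 1.96 and 1.96 in replicates 1, 2 and 3, and a site without a call can lie near or under such values. Of 305 other regions in the genome with fold at least as high in both batch 1 TGFβ lists, 4 were called in no vehicle list (1.31%), while 275 were called in TGFβ replicate 3 and 212 in vehicle replicate 3. Among the 398 regions of the genome called in all 3 TGFβ and no vehicle list, the site at 48.0 kb ranked 4th by median percentile of −log10 q. Its percentiles were 98.6, 99.0 and 72.2 in TGFβ replicates 1 to 3, so the median is the value of replicate 1. Its calls held at a −log10 q of at least 5 and in lists of equal length, but at a fold of at least 5 it was called in TGFβ replicates 1 and 2 only. No site was common to all 3 TGFβ lists and absent from vehicle when summits were widened to windows of 200 bp, or when a call had to cover at least 50% of a site.

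Smaller sites stood beside it. At 43.5 kb, from 92578792 to 92579817, the fold was 5.67 and 5.52 in TGFβ replicates 1 and 2. At 37.2 kb, from 92585571 to 92586241, it was 3.24 and 3.77. Neither was called in TGFβ replicate 3 or with vehicle, and 2 more sites between 42.3 and 46.0 kb were called in TGFβ replicate 2 alone.

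The site at 129 kb was the widest and had the most vehicle signal. It spanned 92490130 to 92495938 (5809 bp) and comprised 11 peaks. Its strongest summit lay between 128.9 and 129.3 kb from that of the 5′ end site in the 4 lists that called both, while the distal and proximal RefSeq starts are 128.7 kb apart in GRCm38. The placement at the proximal promoter rests on this spacing, because no gene model of the peaks' build was used here. TGFβ replicates 1 to 3 gave folds of 14.2, 16.6 and 5.48, vehicle replicates 1 and 2 gave 4.97 and 5.57, and vehicle replicate 3 had no call. TGFβ replicates 1 and 2 were again apart from the rest, and TGFβ replicate 3 lay between the vehicle values. Summits held 174, 188 and 92 overlapping fragments with TGFβ and 57 and 68 with vehicle. The background under TGFβ replicate 3 was 16.0 fragments, 1.51 times the lowest of that list, while in the other 4 lists it was at the lowest. This was the strongest site of the locus in TGFβ replicate 3 and in both vehicle lists, at the 97.6, 84.4 and 86.5 percentile of −log10 q in TGFβ replicate 3 and vehicle replicates 1 and 2.

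Peak shape at this site also varied between lists. The strongest peak was 3655 and 5465 bp wide in TGFβ replicates 1 and 2, 662 bp in TGFβ replicate 3, and 830 and 1866 bp in vehicle replicates 1 and 2. The strongest summits of TGFβ replicates 1 and 2 lay within 27 bp of each other and those of the vehicle lists within 6 bp, at 92493768 and 92493762. The batch 1 TGFβ summits, at 92493632 and 92493605, were thus at lower coordinates than the vehicle summits, and that of TGFβ replicate 3 was at 92493876. Vehicle replicates 1 and 2 and TGFβ replicate 3 each had a separate smaller peak towards the 5′ end of the gene, with folds of 2.57, 3.15 and 2.70 and summits within 75 bp of each other, inside the widest peak of the batch 1 TGFβ lists. Vehicle replicate 2 had one more there, with its summit at 92495202 and a fold of 2.10.

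At 116 kb, from 92506835 to 92507709, lay a narrower site that only the batch 1 TGFβ lists called. Its fold was 7.38 and 8.59 in TGFβ replicates 1 and 2, the highest of the locus after the 4 leading sites, and its summits were 7 bp apart. At the 89.8 and 89.4 percentile of their lists it was a strong call there, with no call in TGFβ replicate 3. Between this site and the one at 48.0 kb, 3 sites were called in a single TGFβ list each.

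The site at 205 kb lay towards the 3′ end of the gene, from 92416743 to 92419494 (2752 bp). TGFβ replicates 1 to 3 gave folds of 10.4, 17.6 and 4.47, vehicle replicates 1 and 2 gave 4.01 and 4.20, and vehicle replicate 3 had no call. All 3 TGFβ values exceeded both vehicle values, narrowly so in TGFβ replicate 3. Summits held 127, 200 and 54 fragments with TGFβ and 46 and 51 with vehicle. With TGFβ the strongest summits fell within 126 bp, and those of the 2 vehicle lists were 560 bp apart.

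Weaker sites closed the 3′ side. Sites at 216 and 224 kb were called in both batch 1 TGFβ lists, with folds of 2.84 and 3.07 at the first and 2.76 and 3.59 at the second. The site at 244 kb, in the 3′ flank from 92378486 to 92379417, was called by TGFβ replicates 1 and 2 at folds of 3.32 and 3.68 and by vehicle replicate 2 at 2.26. It was the only flank site called with vehicle, and at the 6.97 percentile of −log10 q it was among the weakest peaks of that list. The other 4 sites beyond 205 kb were called in TGFβ replicate 2 alone.

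**Figure D3:**
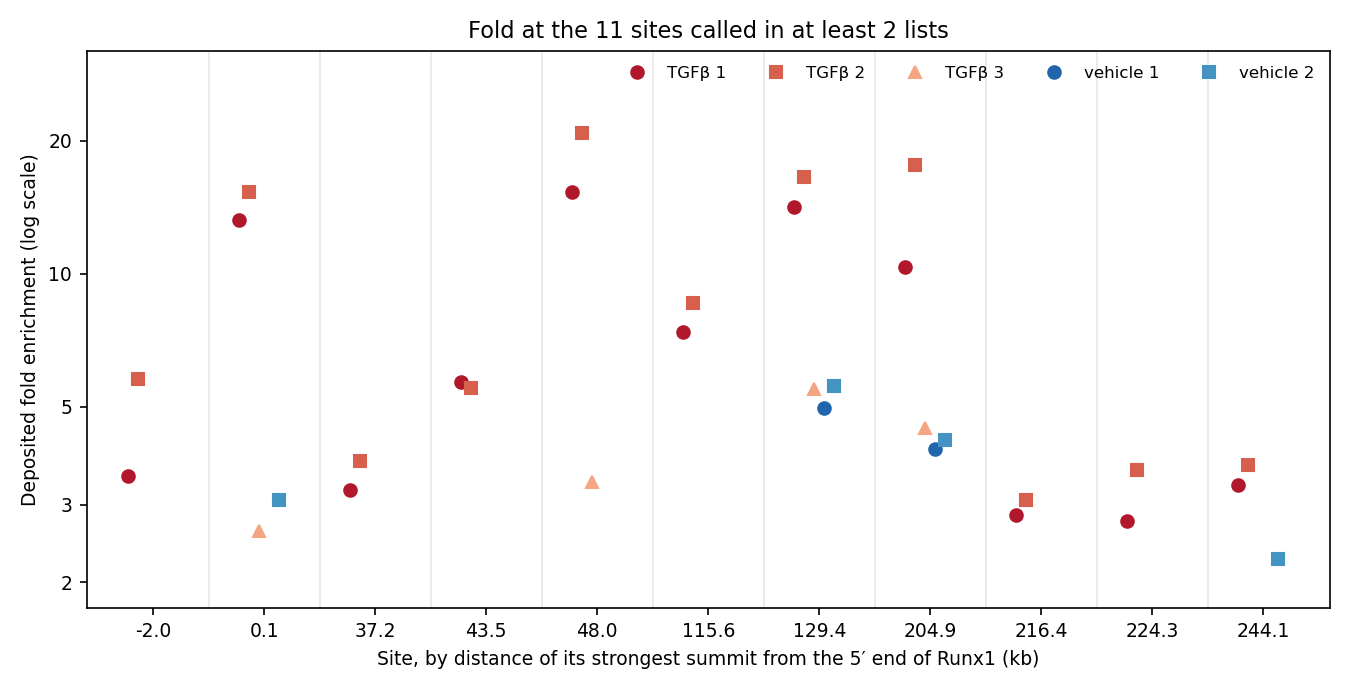
Deposited fold enrichment (log axis) at the 11 sites called in at least 2 lists, ordered by distance from the 5′ end of Runx1 in kb; each symbol is a library, and a library without a call at a site has no symbol. At the sites at 0.1, 48.0, 129.4 and 204.9 kb TGFβ 1 and 2 lie above 10, while TGFβ 3 and the vehicle libraries lie between 2.61 and 5.57.

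Where both lists of a batch and number called a site, the fold with TGFβ was set beside the fold with vehicle and beside the same ratio over all regions called in both. In the replicate 1 lists 2 of 2 such sites had the higher fold with TGFβ (background 87.1% of 12009 regions), and in the replicate 2 lists 4 of 4 (91.4% of 17316 regions). A higher fold alone was thus the common state of the genome. A fold at least 2 times higher was found at 2 of 2 sites in the replicate 1 lists (17.9%) and at 3 of 4 in the replicate 2 lists (21.8%). At the site at the 5′ end the ratio was 5.0 in the replicate 2 lists, above 99.4% of regions. At 205 kb it was 2.59 and 4.20 in the replicate 1 and 2 lists, above 92.6% and 98.7% of regions. At 129 kb it was 2.86 and 2.97, above 94.7% and 94.5%. None of these shares was matched for fold. A region with a low TGFβ fold cannot reach a high ratio, since both lists must call it. The weak site at 244 kb had a ratio of 1.63 in the replicate 2 lists, near the median of 1.52 over all regions. In batch 2 no site was called in both lists.

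**Figure D4:**
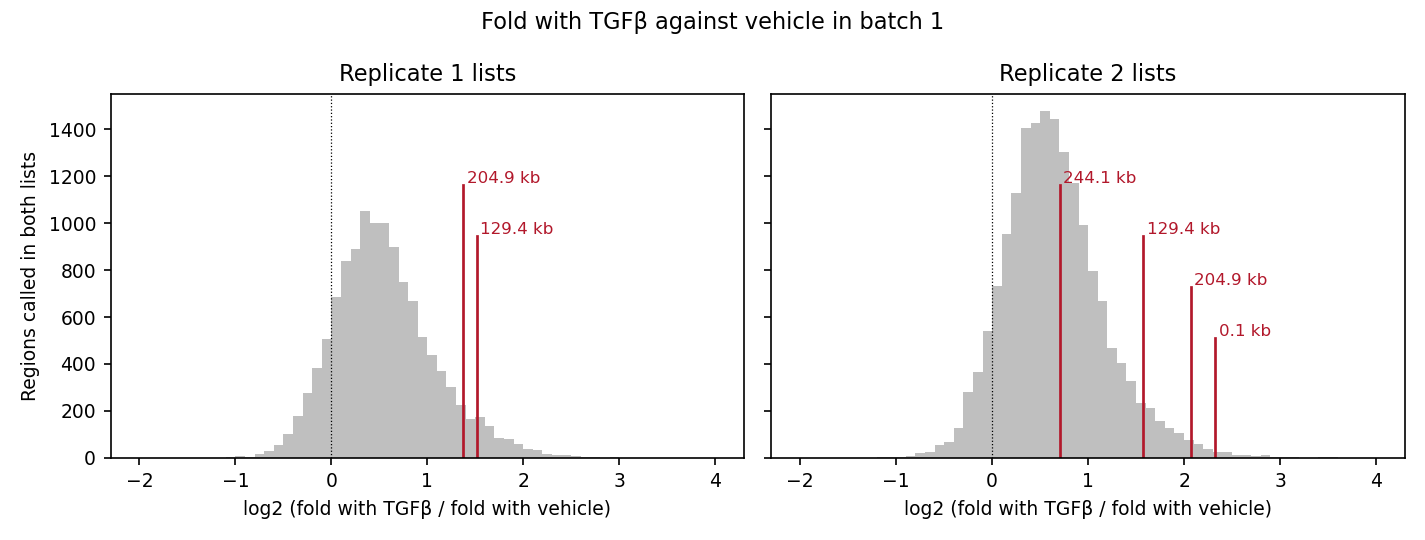
Distribution, over regions called in both lists, of the log2 ratio of deposited fold with TGFβ to fold with vehicle in the replicate 1 lists (left) and the replicate 2 lists (right); red lines mark sites of the Runx1 locus by distance from its 5′ end. All lines but that of the 244.1 kb site stand at ratios of 2.59 to 5.0, above 92.6% to 99.4% of regions.

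Each batch 2 list called fewer sites of the locus than the batch 1 lists of its treatment. TGFβ replicate 3 called 4 of the 11 sites that TGFβ replicates 1 and 2 shared, against 29.1% of such regions over the genome. Vehicle replicate 3 called 0 of the 2 sites that vehicle replicates 1 and 2 shared, where 38.2% of such regions were called, and 0 of the 4 sites of TGFβ replicate 3 (43.3%). Counts out of 11, 2 and 4 sites are too small to read as a trait of the locus. The lowest background of vehicle replicate 3, which rises with depth and with fragment length, was 11.8 fragments, the highest of the 6 lists (10.4 to 11.8). Read depth itself is unknown, and whether it bears on the missing calls was not tested. Of the 11 sites shared by the batch 1 TGFβ lists, 4 were called in a batch 1 vehicle list (61.8% of such regions over the genome).

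The locus was finally set beside 7515 windows of 350 kb laid along the autosomes and chromosome X. In TGFβ replicates 1, 2 and 3, 90.8%, 93.6% and 84.2% of windows held fewer peaks than the locus, where the median window held 2, 3 and 1. In vehicle replicates 1 and 2, 73.2% and 81.4% of windows held fewer, with a median of 1 in both. In vehicle replicate 3 the locus shared its count of 0 with 49.5% of windows. The windows describe where the locus stood in each list, since they share libraries and differ in gene content.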

How the data were processed

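Peak lists of 6 RUNX1 ChIP-seq libraries were used; the 4 input libraries were not analysed here. Per the submitters' processing notes, DRAGEN, Trimmomatic, Bowtie2 (2.5.2), MACS2 and the builds mm39 and GRCm39 are named; the control library and cut-off are not given in the sources used here. Each deposited list gives a fold (a ratio over local background), a −log10 p and a −log10 q at the summit, and a score derived from the −log10 q. Lists were made per library, and read depth is unknown. Peaks with summits in the window were taken and merged at 1 bp overlap (Python 3.11.15, pandas 2.3.3), and group values compared by exact permutation (scipy 1.17.1). A whole pileup and its background were solved from fold, as (pileup + 1)/(background + 1), and the Poisson p, within 0.001 on the −log10 p scale; in the list with the lowest share this succeeded for 99.99% of peaks. Near-lowest background means up to 1.05 times the lowest. Merging and recovery were tested on simulated data.

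Libraries were paired by batch and, in batch 1, by title wording. Deviations of paired libraries from their group means over all regions correlated at 0.135, 0.225 and 0.418. Crossed pairs within batch 1 were not computed, so these values cannot show which batch 1 libraries belong together.

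Members, gene lists and tests were chosen with earlier results of these data known. Sites named by rule were those called in all 6 lists, in all TGFβ and no vehicle lists or the reverse, at a promoter, or highest in a list; others were named after their values were seen. Since the RefSeq gene table is GRCm38, planned counts of peaks at other genes, genes of similar pattern, motifs under peaks and loci of cholangiocyte genes were not made. The promoter search in their place was chosen later.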

Additional observations from a re-analysis of the deposited data

How the results depend on the processing

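The difference in locus peaks (10) kept its direction under all alternatives tried, from 3.67 in lists of equal length to 14 without TGFβ replicate 3, and so did covered length (11442 bp), from 7499 bp without TGFβ replicate 2 to 16785 bp without TGFβ replicate 3. The replicate block pairs libraries of the same batch by their titles, and its differences are 10 peaks and 11442 bp by construction. The exact sign-flip p was 0.25 for both, the smallest possible with 3 pairs, so this setting could not change a call. Averaging the batch 1 libraries of a treatment, chosen after the data were seen, gave 8.75 peaks and 9358 bp.

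Counts of sites moved more. Sites called in all lists numbered 2 in batch 1 alone and 0 to 2 without one library. The count called in all TGFβ and no vehicle list (1) was 0 at a fold of at least 5. It was also 0 with windows of 200 bp on the summits and with at least 50% of a site covered. In batch 1 alone it was 7. With 1 library left out it ranged from 1 to 7. It was 7 when TGFβ replicate 3 was dropped and 2 when vehicle replicate 2 was. Under the replicate block another quantity was counted: sites called in the TGFβ list of a pair and not in its vehicle list. These averaged 9.67 per pair. A call in 1 TGFβ list is enough there, so this mean cannot be compared with the count of 1. Sites called in both batch 1 TGFβ lists and neither batch 1 vehicle list (7) numbered 3 at equal list length and 7 to 16 without one library. Sites in TGFβ lists only (16 of 20) numbered 4 of 7 at equal list length and 6 at a fold of at least 5. They numbered 9 of 12 at a −log10 q of at least 5 and 10 to 18 without 1 library. Shares over all regions were not computed under these settings. In batch 1 alone and with a library left out, fewer lists enter each count. The cause of these moves was not tested. Sites in vehicle lists only (0) numbered 2 with windows of 200 bp on the summits, both inside batch 1 TGFβ peaks. They numbered 0 under the other settings, each left-out library included. Read depth is unknown, and a site without a call can lie just under the threshold.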
